A study of Mus musculus with 15 samples.

Results

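The genes described here take up glucose, break it down to pyruvate and lactate, or belong to the cellular response to low oxygen. They are 37 genes chosen by name, from the glucose carriers through the glycolytic enzymes to the hypoxia-inducible factors and genes that respond to them, of 21173 genes named on the array. The choice was made with earlier results of these data known, so their shares of calls below are given without a conclusion. All 37 had at least 1 probe, 58 probes in all, and 12 of them had several. The image software called 33 of them well above background on all 15 arrays. Pfkfb1 was well above background on none, and Hk2, Pfkfb2 and Hif3a on some.

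RNA was measured on one-colour Agilent arrays in endothelial cells (EC) sorted from mouse liver, with 3 samples in each of 5 populations. EC-SP and EC-MP came from mice 8 weeks old. The labels do not spell out SP and MP, which in this field stand for side population, the cells that pump out a DNA dye, and main population. The other populations came from adult liver and were sorted by the surface proteins CD157 (gene Bst1), an ectoenzyme, and CD200, an immune-regulatory glycoprotein, into double-positive cells (CD157+CD200+), cells with CD200 alone (CD157-CD200+) and double-negative cells (CD157-CD200-). The labels name no strain, genotype or treatment for any of them. The design text calls the samples independent, but no label says that each came from its own animal or how many animals were pooled. The p-values therefore measure the spread between samples, which may be partly technical. The study was set up to look for markers of an endothelial stem cell, by comparing EC-SP with EC-MP and the subsets with each other.

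Glucose enters endothelial cells through carriers of the GLUT family and is trapped by hexokinases. Phosphofructokinase sets the pace of glycolysis and is driven by fructose-2,6-bisphosphate, which the PFKFB enzymes make. Endothelial cells are known to draw much of their ATP from glycolysis even with oxygen at hand, and PFKFB3 is the enzyme best known for this in sprouting vessels. When oxygen falls, prolyl hydroxylases of the EGLN family stop marking HIF-1α for destruction, and HIF-1 binds DNA at the core sequence ACGTG or GCGTG to raise glucose carriers, glycolytic enzymes and pyruvate dehydrogenase kinases. Liver sinusoids lie between oxygen-rich portal and oxygen-poor central vessels, so this response is also known for its zonation there.

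The start regions of 6 of the genes are shown because the results below turn on them: Slc2a1, Pfkfb3 and Egln3 were higher in the CD157+CD200+ subset than in CD157-CD200-, Ldhb and Pdk4 were lower, and Ldha is a textbook HIF target. Each is 1 window of 300 bases, 250 before and 50 after the start of the gene, from RefSeq on build GRCm38.p6, written 5′ to 3′ on the strand of the gene. The capitals mark ACGTG or GCGTG on either strand, which reads as CACGT or CACGC on the other one. Both searches overlap at CACGTG, which counts on both strands.
Slc2a1 (chr4:119108495-119108794, plus strand): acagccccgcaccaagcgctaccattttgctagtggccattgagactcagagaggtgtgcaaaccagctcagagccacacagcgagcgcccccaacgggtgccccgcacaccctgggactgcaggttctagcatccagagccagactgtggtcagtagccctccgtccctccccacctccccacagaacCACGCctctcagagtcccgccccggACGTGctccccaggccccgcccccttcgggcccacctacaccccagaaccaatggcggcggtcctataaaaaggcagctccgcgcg
Pfkfb3, window 1 (chr2:11553880-11554179, minus strand): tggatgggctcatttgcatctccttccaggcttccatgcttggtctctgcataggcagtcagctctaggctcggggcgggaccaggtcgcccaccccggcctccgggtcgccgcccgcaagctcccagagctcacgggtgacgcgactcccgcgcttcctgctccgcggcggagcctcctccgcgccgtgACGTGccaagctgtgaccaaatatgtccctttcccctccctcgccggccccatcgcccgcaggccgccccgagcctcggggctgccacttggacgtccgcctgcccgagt
Egln3 (chr12:54203825-54204124, minus strand): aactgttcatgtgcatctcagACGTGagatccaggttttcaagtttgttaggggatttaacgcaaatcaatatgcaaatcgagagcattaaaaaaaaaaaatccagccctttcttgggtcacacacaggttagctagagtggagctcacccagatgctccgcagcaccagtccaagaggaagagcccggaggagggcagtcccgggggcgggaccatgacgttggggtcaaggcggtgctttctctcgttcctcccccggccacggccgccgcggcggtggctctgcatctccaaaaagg
Ldha, window 1 (chr7:46845554-46845853, plus strand): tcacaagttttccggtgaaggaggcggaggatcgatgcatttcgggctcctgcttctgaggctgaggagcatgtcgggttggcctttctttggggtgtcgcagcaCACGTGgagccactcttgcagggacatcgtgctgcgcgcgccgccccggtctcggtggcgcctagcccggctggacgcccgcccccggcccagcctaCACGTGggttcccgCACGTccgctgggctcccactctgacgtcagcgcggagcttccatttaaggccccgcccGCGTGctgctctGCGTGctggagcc
Ldhb (chr6:142507908-142508207, minus strand): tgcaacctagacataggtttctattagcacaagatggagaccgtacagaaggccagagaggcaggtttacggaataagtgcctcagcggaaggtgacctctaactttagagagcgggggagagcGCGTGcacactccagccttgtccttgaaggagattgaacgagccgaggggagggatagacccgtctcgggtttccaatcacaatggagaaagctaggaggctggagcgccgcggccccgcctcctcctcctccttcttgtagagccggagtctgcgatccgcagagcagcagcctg
Pdk4 (chr6:5496229-5496528, minus strand): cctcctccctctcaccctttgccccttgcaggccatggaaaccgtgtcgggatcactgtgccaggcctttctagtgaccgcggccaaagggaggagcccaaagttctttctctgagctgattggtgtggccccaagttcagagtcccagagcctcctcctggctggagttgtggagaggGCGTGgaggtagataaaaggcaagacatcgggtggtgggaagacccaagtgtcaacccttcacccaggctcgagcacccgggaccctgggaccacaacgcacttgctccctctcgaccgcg

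The Ldha window held 7 such cores, counted over both strands, and the Slc2a1 window held 2. The windows shown for Pfkfb3, Egln3, Ldhb and Pdk4 held 1 each, so genes on both sides of the comparison carried a core. Pfkfb3 and Ldha each have a second window at another start, not shown, with 4 and 2 cores. RefSeq windows were at hand for 35 of the 37 genes, not for Slc2a3 and Ndrg1. Of their 53 windows, 42 held at least 1 core, or 79.2%, beside 43.8% of all 32851 windows of this length. The median GC content was 60.7% in the members' windows and 52.7% in all windows, and its part in that difference was not tested. The members were chosen partly as genes that respond to HIF. Some windows of 1 gene, as for Eno1, overlap and hold the same cores. The share of windows with a core is therefore given without a conclusion. A core in a window is a match of letters and not a binding site.

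No spot was saturated, and 57.3% to 69.4% of an array's spots passed the software's background test. The 6 EC-SP and EC-MP arrays were read on another scanner, with another software version, than the 9 subset arrays, so levels are compared only within each set. Levels below are the log2 of the processed signal minus that array's 75th percentile, and a difference of 1 is a change of 1 doubling. The 10 pan-endothelial markers, Pecam1 and Cdh5 among them, were well above background on every array. The 10 sinusoidal markers, such as Stab2 and Lyve1, were all lower in EC-SP than in EC-MP and all lower in CD157+CD200+ than in CD157-CD200-. Their summed level, in multiples of the 75th percentile, was 22.4 to 29.1 in EC-SP, 294 to 540 in EC-MP, 77.4 to 103 in CD157+CD200+, 146 to 180 in CD157-CD200+ and 943 to 1270 in CD157-CD200-. In sorted bulk samples, fewer cells of a type and less RNA per cell cannot be told apart.

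A gene was called where limma's adjusted p, over all features of a comparison, was under 0.05. In EC-SP against EC-MP, 11 of 34 tested members passed, beside 16.6% of all features. In EC-SP 8 of them were higher (9.11% of all features) and 3 lower (7.44%). In CD157+CD200+ against CD157-CD200-, called the outer subsets below, 9 of 36 passed, beside 15.2% of all features. Of these, 5 were higher (8.09%) and 4 lower (7.11%). In CD157-CD200+ against CD157-CD200-, 9 of 36 passed, beside 11.8%, again with 5 higher (6.31%) and 4 lower (5.54%). Of those 9, 5 differed by at least 1 log2 unit, beside 9.12% of all features. CD157+CD200+ and CD157-CD200+ were sorted apart by CD157, but they differed in more than Bst1. Cd200 was also called higher in CD157+CD200+, and 3 of 10 sinusoidal markers were lower. In this comparison 1 of 36 members passed, beside 1.05%. It was higher in CD157+CD200+, as 0.802% of all features were, and 0.245% were lower. The members' median difference in these comparisons was 0.43, 0.23, 0.21 and 0.04 on the log2 scale, beside -0.01, 0.01, 0.02 and -0.01 over all features. The subset comparisons share samples with each other.

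The arrays were hybridised 1 replicate number to a slide, and each slide carried every population of its set, so slide and replicate number are the same block. With slide as a block, 14 members were called in EC-SP against EC-MP, beside 21.9% of all features. The blocked counts were 20 in CD157+CD200+ against CD157-CD200- beside 29.3%, 15 in CD157-CD200+ against CD157-CD200- beside 22.3%, and 3 in CD157+CD200+ against CD157-CD200+ beside 3.07%. Every member called without the block was also called with it. In CD157-CD200+ against CD157-CD200- the blocked limma fit added Hk2 and Tpi1, given below, and Aldoa, Hk1, Pfkfb4 and Egln1. The differences of the last 4 were 0.50, 0.41, 0.74 and -0.51 (adjusted p 0.014, 0.028, 0.044 and 0.048). Leaving out any 1 of the 6 libraries left 5 to 8 calls in EC-SP against EC-MP. In CD157-CD200+ against CD157-CD200-, leaving out 1 of the 9 libraries gave 5 to 10, beside 8.21% to 11.4%.

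**Figure D1:**
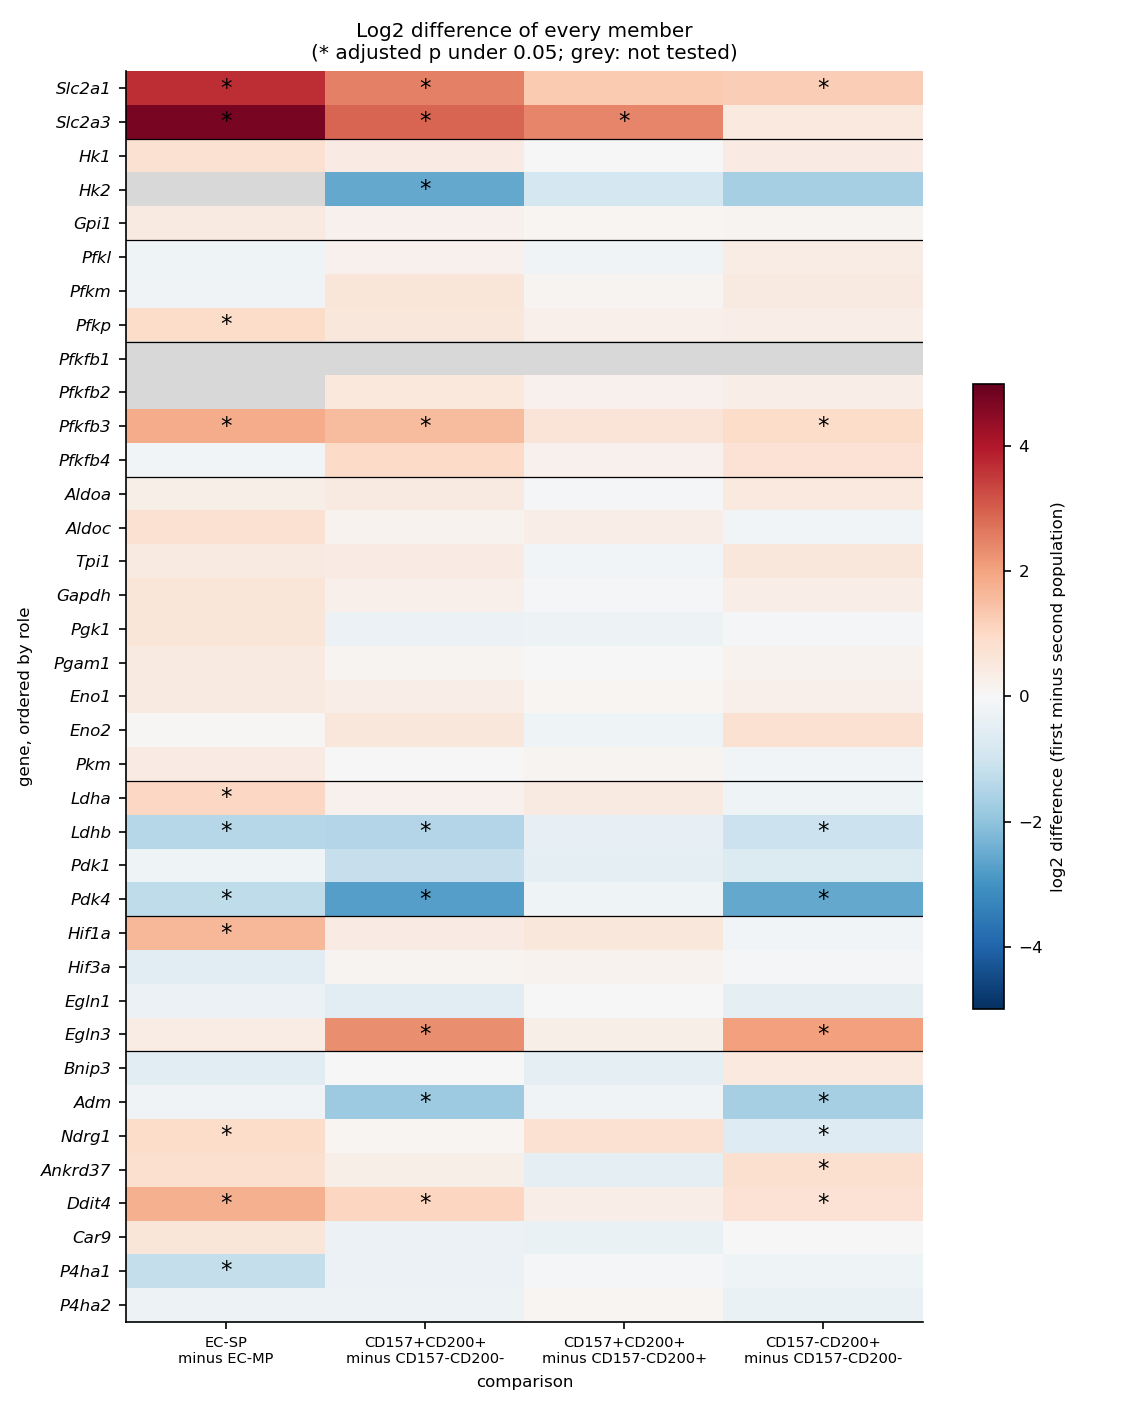
Log2 difference (colour scale, first minus second population) of each of the 37 genes, grouped by role from top to bottom, in the 4 comparisons from left to right. Stars mark an adjusted p under 0.05 and grey marks genes not tested. The glucose carriers at the top reach 4.76, the lower glycolytic enzymes from Aldoa to Pkm carry no star in any column, and Ldhb and Pdk4 are lower in 3 columns.

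The glucose carriers gave the largest differences among the members in EC-SP. Slc2a3 encodes GLUT3, a carrier with high affinity for glucose. Its level in replicates 1, 2 and 3 was 2.09, 2.13 and 1.98 in EC-SP and -3.14, -2.71 and -2.22 in EC-MP. The groups lay far apart, and the difference was 4.76 ± 0.27 (SE, n = 3 per group), or 27.0-fold, with an adjusted p of 2.7e-05 in limma. On the 3 slides it was 5.23, 4.84 and 4.19. Its size depends on the background correction, and under normexp the difference was 3.28.

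Among the subsets, Slc2a3 stood at 1.21, 1.14 and 0.88 in CD157+CD200+, at -1.18, -1.50 and -1.42 in CD157-CD200+ and at -2.21, -1.76 and -1.55 in CD157-CD200-. The CD157+CD200+ samples stood well above all the others, and the remaining subsets came close to each other without overlapping. The difference from CD157-CD200- was 2.91 ± 0.21 (SE, n = 3 per group), or 7.54-fold, with a limma adjusted p of 1.2e-05. Slc2a3 was also the 1 member called between CD157+CD200+ and CD157-CD200+, at 2.44 ± 0.21 (SE), 5.42-fold, adjusted p 0.00104. Under normexp these differences were 1.84 and 1.67. Between the CD157- subsets its difference of 0.48 was not called.

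Slc2a1 encodes GLUT1, the basal carrier of endothelium. It stood at 3.94, 3.93 and 4.14 in EC-SP and at 0.14, 0.28 and 0.45 in EC-MP. Its groups were separate by over 3 log2 units, with a difference of 3.71 ± 0.21 (SE, n = 3 per group), or 13.1-fold, and an adjusted p of 2.7e-05. In the subsets its levels were 3.21, 3.27 and 2.48 in CD157+CD200+, 2.04, 1.85 and 1.12 in CD157-CD200+ and 0.36, 0.84 and 0.16 in CD157-CD200-. The 3 subsets did not overlap, and the sample of replicate 3 was the lowest in each.

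The step in Slc2a1 from CD157-CD200- to CD157-CD200+ was 1.22 ± 0.31 (SE), adjusted p 0.033, and from there to CD157+CD200+ it was 1.31 ± 0.31 (SE), adjusted p 0.12. Both passed with slide as a block, at adjusted p 0.0024 and 0.012. The first step was not called without CD157+CD200+ replicate 1, CD157-CD200+ replicate 1 or 2, or CD157-CD200- replicate 1 or 3, where the adjusted p lay between 0.051 and 0.13, nor with no filter on dim probes (0.079). Between the outer subsets the difference was 2.53 ± 0.31 (SE), or 5.77-fold, adjusted p 0.00041. The summed level of the erythroid list, led by haemoglobin, was 1.20 to 1.74 in CD157+CD200+ and 10.8 to 21.9 in CD157-CD200-. It was 1.20 to 1.80 in EC-SP and 2.54 to 4.52 in EC-MP. Of the 6 genes on that list, 5 were on the array. The part of red-cell transcripts in the Slc2a1 levels was not tested.

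Hk1, the housekeeping form that sits on mitochondria, stood at 3.91, 3.83 and 5.21 in EC-SP and at 3.25, 3.39 and 4.03 in EC-MP. Replicate 3 was the highest in both, the groups overlapped, and the difference of 0.76 was not called (adjusted p 0.23). In the subsets Hk1 stood between 4.50 and 5.19 in CD157+CD200+ and between 4.04 and 4.75 in CD157-CD200-, a difference of 0.41 with adjusted p 0.40, or 0.023 with slide as a block. Gpi1, the isomerase after hexokinase, was not called in any of the comparisons, with or without the block.

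Hk2, the insulin-responsive hexokinase and a HIF target, was dim. It was not well above background on any EC-SP array and stood at -2.96, -5.78 and -3.16 in EC-MP, where 2 of 3 arrays measured it, so that pair was not tested. In the subsets it stood at -4.97, -4.34 and -2.91 in CD157+CD200+, well above background on 1 of 3 arrays, at -3.40, -3.27 and -2.89 in CD157-CD200+, and at -1.60, -2.41 and -0.53 in CD157-CD200-. All CD157-CD200- samples stood above all the others. Hk2 was lower in CD157+CD200+ (adjusted p 0.012), but the fitted value of -2.56 ± 0.56 (SE, n = 3 per group) rests on signals at background in 2 of 3 CD157+CD200+ samples, and its size is uncertain. Under normexp it was -0.79 (adjusted p 0.032), and where a probe had to be above background on every array Hk2 was not tested. The difference of -1.68 between CD157-CD200+ and CD157-CD200- had an adjusted p of 0.095, or 0.018 with slide as a block, and it passed without CD157+CD200+ replicate 3 (0.040) or CD157-CD200- replicate 2 (0.049).

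Pfkfb3 was the clearest of the enzymes that set the rate of glycolysis. It stood at 4.0, 3.94 and 4.29 in EC-SP and at 1.91, 2.59 and 2.17 in EC-MP. The groups were well apart, at a difference of 1.86 ± 0.25 (SE, n = 3 per group), or 3.62-fold, adjusted p 0.0014. The subsets followed in order without overlap, at 3.28, 3.31 and 3.43 in CD157+CD200+, 2.72, 2.56 and 2.77 in CD157-CD200+ and 1.57, 2.08 and 1.66 in CD157-CD200-. The outer subsets differed by 1.57 ± 0.18 (SE), or 2.97-fold, adjusted p 0.00027, and the CD157- subsets by 0.92 ± 0.18 (SE), adjusted p 0.009. The step of 0.65 between the CD200+ subsets was not called. A second probe of Pfkfb3 gave 1.39 for EC-SP against EC-MP and 1.69 for the outer subsets.

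The other PFKFB genes were not called without the block. Pfkfb4, known as a HIF target, stood between -2.35 and -1.30 in EC-SP and between -2.18 and -0.28 in EC-MP, a difference of -0.15. For CD157+CD200+ against CD157-CD200- its difference of 0.95 had an adjusted p of 0.17, or 0.015 with slide as a block, and 0.040 without CD157-CD200- replicate 2. Pfkfb2 was tested in the subsets alone, where its difference of 0.53 had an adjusted p of 0.11, or 0.026 with the block.

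Of the 3 phosphofructokinase genes, Pfkp, the platelet-type subunit, was called in EC-SP. It stood at 1.42, 1.29 and 1.39 in EC-SP and at 0.77, 0.26 and 0.25 in EC-MP, so the groups did not overlap. The difference was 0.94 ± 0.23 (SE, n = 3 per group), adjusted p 0.024, and on the slides 0.65, 1.02 and 1.13. It was not called without EC-SP replicate 1, 2 or 3 or EC-MP replicate 2 or 3, where the adjusted p was 0.061 to 0.089, nor with no filter on dim probes (0.078). A second Pfkp probe differed by only 0.13, and the mean of both, 0.54, had an adjusted p of 0.12, so the probes disagree. The liver-type Pfkl and the muscle-type Pfkm stood at -0.20 and -0.17 in that comparison, neither called. In the outer subsets the differences were 0.57 for Pfkp, 0.59 for Pfkm and 0.20 for Pfkl, none called, and Pfkp and Pfkm passed with slide as a block (adjusted p 0.025 and 0.027). Without the block Pfkm passed there with the percentile over detected probes (0.038). The second Pfkp probe gave -0.46 between the outer subsets.

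The 9 enzymes of lower glycolysis, from aldolase to pyruvate kinase, had no call by limma in any of the 4 comparisons under the chosen processing. At an unadjusted p under 0.05 there were 3 in EC-SP against EC-MP, 1 between the outer subsets, 0 between the CD200+ subsets and 2 between the CD157- subsets. In EC-SP against EC-MP all 9 differences were positive, between 0.05 for Eno2 and 0.77 for Aldoc. Their median was 0.44, beside -0.01 over all features. They were positive on all 3 slides for 8 of the 9. The shares of all features at an unadjusted p under 0.05, or positive on all 3 slides, were not counted. Aldoc, the brain-type aldolase, stood at -0.37, -1.10 and -0.43 in EC-SP and at -1.48, -1.59 and -1.14 in EC-MP, with an adjusted p of 0.087, or 0.042 with slide as a block and 0.048 without EC-SP replicate 2. Gapdh, which oxidises glyceraldehyde phosphate, differed by 0.61 (adjusted p 0.097), and by 0.55 to 0.67 over its 7 probes. Under normexp it was called (adjusted p 0.031). Some of those probes may also bind its many processed pseudogenes.

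Between the outer subsets the 9 differences ran from -0.30 for Pgk1, phosphoglycerate kinase, to 0.56 for Eno2, the neuronal enolase. Their median was 0.27, beside 0.01 over all features. Of the 9 enzymes, Aldoa, Tpi1 and Eno1 passed with slide as a block, at differences of 0.44, 0.42 and 0.32 (adjusted p 0.019, 0.033 and 0.042). Tpi1, triose phosphate isomerase, also lay near the threshold between the CD157- subsets, at 2.92, 2.58 and 2.80 in CD157-CD200- and 3.36, 3.22 and 3.42 in CD157-CD200+. That difference of 0.57 ± 0.16 (SE) had an adjusted p of 0.053, or 0.014 with the block. It also passed under 6 alternatives without a block, at adjusted p 0.019 to 0.049: normexp, quantile normalization, the series table, the percentile over detected probes, the stricter filter and the mean over probes. Pgam1, phosphoglycerate mutase, differed by 0.43 between EC-SP and EC-MP and by 0.15 between the outer subsets. Pkm, pyruvate kinase, differed by -0.01 between the outer subsets and by 0.40 between EC-SP and EC-MP. Each of the 9 differed by under 0.8 log2 units in every comparison.

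Lactate dehydrogenase is a tetramer of A chains, favoured for making lactate, and B chains, favoured for using it. Ldhb stood at 0.66, 0.03 and 0.23 in EC-SP and at 1.89, 1.68 and 1.60 in EC-MP. All EC-SP samples were lower, by 1.42 ± 0.24 on the log2 scale (SE, n = 3 per group), with an adjusted p of 0.0046. In the subsets it stood at 1.21, 1.08 and 1.24 in CD157+CD200+, at 1.73, 1.39 and 1.64 in CD157-CD200+ and at 2.86, 2.21 and 2.87 in CD157-CD200-. The 3 subsets did not overlap and ran opposite to Pfkfb3 in order. Ldhb was 2.77-fold higher in CD157-CD200- than in CD157+CD200+ (adjusted p 0.0012) and 2.08-fold higher than in CD157-CD200+ (adjusted p 0.010).

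Ldha stood at 5.90, 5.92 and 6.72 in EC-SP and at 5.16, 4.87 and 5.45 in EC-MP. The groups did not overlap, replicate 3 was the highest in both, and the difference was 1.02 ± 0.29 (SE, n = 3 per group), adjusted p 0.044. That call was the weakest of the 11. It was lost without EC-SP replicate 1, 2 or 3 or EC-MP replicate 1 or 2 (adjusted p 0.063 to 0.14), after quantile normalization (0.17), in the authors' series table (0.086), with the percentile over detected probes (0.056) and with no filter on dim probes (0.12). Its other probes gave 0.57 and 0.17, and the mean over them 0.59 with an adjusted p of 0.11. In the subsets Ldha stood between 5.31 and 5.71 in CD157+CD200+, between 5.0 and 5.18 in CD157-CD200+ and between 5.18 and 5.42 in CD157-CD200-, with no call.

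The pyruvate dehydrogenase kinases keep pyruvate from entering the mitochondrial acetyl-CoA pool. Pdk4, the form induced by fasting and fatty acids, stood at 1.77, 2.18 and 2.09 in CD157+CD200+, at 2.11, 2.10 and 2.42 in CD157-CD200+ and at 4.51, 4.59 and 5.16 in CD157-CD200-. The CD200+ subsets overlapped and the CD157-CD200- samples stood above both. Pdk4 was 6.70-fold higher in CD157-CD200- than in CD157+CD200+, a difference of -2.74 ± 0.22 (SE, n = 3 per group) in CD157+CD200+, adjusted p 2.4e-05. It was 5.83-fold higher there than in CD157-CD200+ (adjusted p 5.55e-05).

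In the side population sort, Pdk4 stood at 1.56, 1.64 and 1.43 in EC-SP and at 3.48, 2.87 and 2.08 in EC-MP. EC-MP was higher in every sample but spread widely, and the difference was -1.26 ± 0.34 (SE, n = 3 per group), adjusted p 0.034. Without EC-SP replicate 1, 2 or 3 or EC-MP replicate 1 or 2 the adjusted p was 0.085 to 0.098, and with no filter on dim probes 0.10. Pdk1, a HIF target, stood at -3.08, -2.20 and -2.82 in CD157+CD200+, at -2.09, -1.88 and -2.76 in CD157-CD200+ and at -1.44, -1.14 and -2.12 in CD157-CD200-. The outer subsets did not overlap, and the difference of -1.13 ± 0.34 (SE, n = 3 per group) had an adjusted p of 0.052. It passed with slide as a block (0.0066), and without CD157+CD200+ replicate 2 (0.037), CD157-CD200+ replicate 3 (0.044) or CD157-CD200- replicate 3 (0.025). It also passed after quantile normalization (0.027), under the stricter filter (0.045) and with the mean over probes (0.04996). Pdk1 in EC-SP, at -2.70, -2.60 and -1.90, overlapped EC-MP, at -3.18, -1.82 and -1.54.

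Markers of hepatocytes and Kupffer cells differed between the same subsets. The 12 hepatocyte markers summed to 27.0 to 40.8 in CD157-CD200-, to 8.12 to 10.12 in CD157-CD200+ and to 10.2 to 12.1 in CD157+CD200+. Of the 10 tested, 9 were lower in CD157+CD200+ than in CD157-CD200-. Cyp3a11 was at background on the CD157+CD200+ arrays, while Alb was well above it on all 15. Of 7 tested Kupffer cell markers 4 (Clec4f, Cd5l, Vsig4 and Marco) were lower in CD157+CD200+ and in CD157-CD200+ than in CD157-CD200-. Their list summed to 35.5 to 50.5 in CD157-CD200- and 24.9 to 29.4 in CD157+CD200+, with Timd4 at background in every population. Hepatocytes make Pdk4 and other metabolic enzymes, and the part of these cells' transcripts in the levels of Pdk4, Hk2, Ldhb and Adm in CD157-CD200- was not tested. In EC-SP and EC-MP the hepatocyte sums were 8.12 to 9.77 and 6.13 to 6.39. There 3 of 9 tested hepatocyte markers were higher in EC-SP (Alb, Ttr and Cyp2e1) and 2 lower (Fgb and Apoa1), with a median of -0.38.

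Hif1a, the oxygen-regulated subunit of HIF-1, is controlled mainly at the protein level, which arrays do not see. Its transcript stood at 2.87, 2.67 and 2.38 in EC-SP and at 1.40, 1.39 and 0.11 in EC-MP. The groups did not overlap, and the difference was 1.67 ± 0.36 (SE, n = 3 per group), or 3.18-fold, adjusted p 0.014. Without EC-SP replicate 1 or 2 the adjusted p was 0.053, and with no filter on dim probes 0.054. In the subsets it stood at 1.23, 1.18 and 2.64 in CD157+CD200+, at 0.74, 0.46 and 2.18 in CD157-CD200+ and at 0.92, 0.76 and 2.12 in CD157-CD200-. Within each subset the sample of replicate 3, all on 1 slide, was more than 1 log2 unit above the other samples. The outer subsets differed by 0.42 (adjusted p 0.75, or 0.031 with slide as a block).

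Egln3, a prolyl hydroxylase that HIF induces and that acts back on HIF, behaved otherwise. It stood at -0.03, 0.22 and 0.00 in CD157+CD200+, at -0.12, -0.02 and -0.60 in CD157-CD200+ and at -2.87, -2.07 and -1.90 in CD157-CD200-. The CD200+ subsets overlapped, and CD157-CD200- stood below both. The outer subsets differed by 2.34 ± 0.27 (SE, n = 3 per group), or 5.08-fold, adjusted p 0.00028, and the CD157- subsets by 2.03 ± 0.27 (SE), adjusted p 0.00087. A second probe gave 2.89 and 2.78, and under normexp the differences were 1.38 and 1.16. In EC-SP it stood at -0.24, -0.39 and -0.63, overlapping EC-MP at -1.23, -0.95 and -0.16, with a difference of 0.36 that was not called. The second probe gave 0.86 there. Egln1, the main oxygen sensor, differed by -0.54 between the outer subsets (adjusted p 0.096, or 0.032 with the block), and Hif3a, an inhibitory HIF subunit, was not called.

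Among genes that respond to hypoxia, Ddit4, an inhibitor of the growth kinase mTORC1, had the lowest adjusted p in EC-SP. It stood at 6.99, 6.90 and 7.12 in EC-SP and at 5.28, 5.12 and 5.28 in EC-MP. The groups were tight and far apart, with a difference of 1.78 ± 0.21 (SE, n = 3 per group), or 3.43-fold, adjusted p 0.00068. The subsets stood in order without overlap, at 6.75, 6.91 and 6.64 in CD157+CD200+, 6.39, 6.42 and 6.50 in CD157-CD200+ and 5.61, 5.66 and 5.85 in CD157-CD200-. The outer subsets differed by 1.06 ± 0.16 (SE), adjusted p 0.0015. The CD157- subsets differed by 0.73 ± 0.16 (SE), adjusted p 0.015, or 0.053 to 0.063 without CD157-CD200- replicate 1 or CD157-CD200+ replicate 1, 2 or 3. Ddit4 also responds to glucocorticoid and to cell stress. Of 12 tested genes of the dissociation response, 2 were higher in EC-SP and 5 in CD157+CD200+ against CD157-CD200-, and their part in these values was not tested.

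Adm, the vessel-relaxing peptide adrenomedullin, went the other way. It stood at 1.15, 1.99 and 1.70 in CD157+CD200+, at 1.68, 1.83 and 1.82 in CD157-CD200+ and at 2.91, 3.51 and 3.89 in CD157-CD200-. The CD157-CD200- samples were above all the others, 3.53-fold over CD157+CD200+ (adjusted p 0.0019) and 3.15-fold over CD157-CD200+ (adjusted p 0.0041). EC-SP, at 2.19, 2.42 and 2.56, lay within the range of EC-MP, at 2.52, 3.16 and 2.05. Egln3 and Adm, both known HIF targets, moved in opposite directions between the subsets and were called in neither direction between EC-SP and EC-MP. The part of HIF in these values was not tested.

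Ndrg1, a stress-induced protein that slows growth, stood at 3.88, 3.51 and 4.04 in EC-SP and at 3.01, 3.09 and 2.62 in EC-MP. All EC-SP samples were higher, by 0.91 ± 0.24 (SE, n = 3 per group), adjusted p 0.035. That call was lost without EC-SP replicate 1 or 3 or EC-MP replicate 1, 2 or 3 (adjusted p 0.067 to 0.10), after quantile normalization (0.062), in the series table (0.066) and with no filter on dim probes (0.10). In the subsets it stood at 3.82, 3.73 and 3.86 in CD157+CD200+, at 3.13, 3.03 and 2.94 in CD157-CD200+ and at 3.89, 3.62 and 3.56 in CD157-CD200-. The middle subset was the lowest, and the outer ones overlapped. CD157-CD200+ was lower than CD157-CD200- by 0.65 ± 0.16 on the log2 scale (SE, adjusted p 0.029), or 0.055 to 0.11 without CD157+CD200+ replicate 1, CD157-CD200- replicate 1 or CD157-CD200+ replicate 1, 2 or 3, and 0.072 with no filter. Against CD157+CD200+ the adjusted p was 0.073, or 0.019 with slide as a block and 0.011 after normexp background correction.

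Ankrd37, an ankyrin-repeat protein induced by HIF, stood at -1.44, -1.37 and -0.97 in CD157+CD200+, at -0.93, -0.90 and -0.46 in CD157-CD200+ and at -1.60, -1.81 and -1.29 in CD157-CD200-. The middle subset was the highest. It was above CD157-CD200- by 0.80 ± 0.22 (SE, n = 3 per group), adjusted p 0.045. Leaving out CD157+CD200+ replicate 1 or 2, CD157-CD200- replicate 1 or 2 or any CD157-CD200+ replicate raised that to 0.066 to 0.16, quantile normalization to 0.081 and no filter on dim probes to 0.10. In EC-SP it stood at -0.85, 0.15 and 0.33 and in EC-MP at -1.43, -0.98 and -0.33, overlapping, with an adjusted p of 0.20, or 0.037 with the block.

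P4ha1, a collagen prolyl hydroxylase subunit and HIF target, was lower in EC-SP. It stood there at -2.58, -2.73 and -1.76, and in EC-MP at -1.06, -1.26 and -1.20. No EC-SP sample reached EC-MP, and the difference was -1.19 ± 0.29 (SE, n = 3 per group), adjusted p 0.022. Without EC-SP replicate 1 or 2 or EC-MP replicate 1, 2 or 3 the adjusted p was 0.051 to 0.082, and with no filter on dim probes 0.075. Under normexp the difference was -0.58 (adjusted p 0.036). Its second probe gave -1.56. In the subsets its levels overlapped, from -1.23 to 0.06 in CD157+CD200+ and from -0.58 to -0.08 in CD157-CD200-. Bnip3, a mitophagy receptor, Car9, a carbonic anhydrase of the cell surface, and P4ha2, the other collagen hydroxylase subunit, were not called in any of the comparisons without the block. In EC-SP against EC-MP, Bnip3 gave -0.58 with groups that did not overlap (adjusted p 0.17) and P4ha2 gave -0.24 with groups that did. Car9 in EC-SP, at 0.86, 1.16 and 0.59, stood above EC-MP, at 0.14, 0.51 and 0.12, with an adjusted p of 0.12, or 0.048 with the block.

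**Figure D2:**
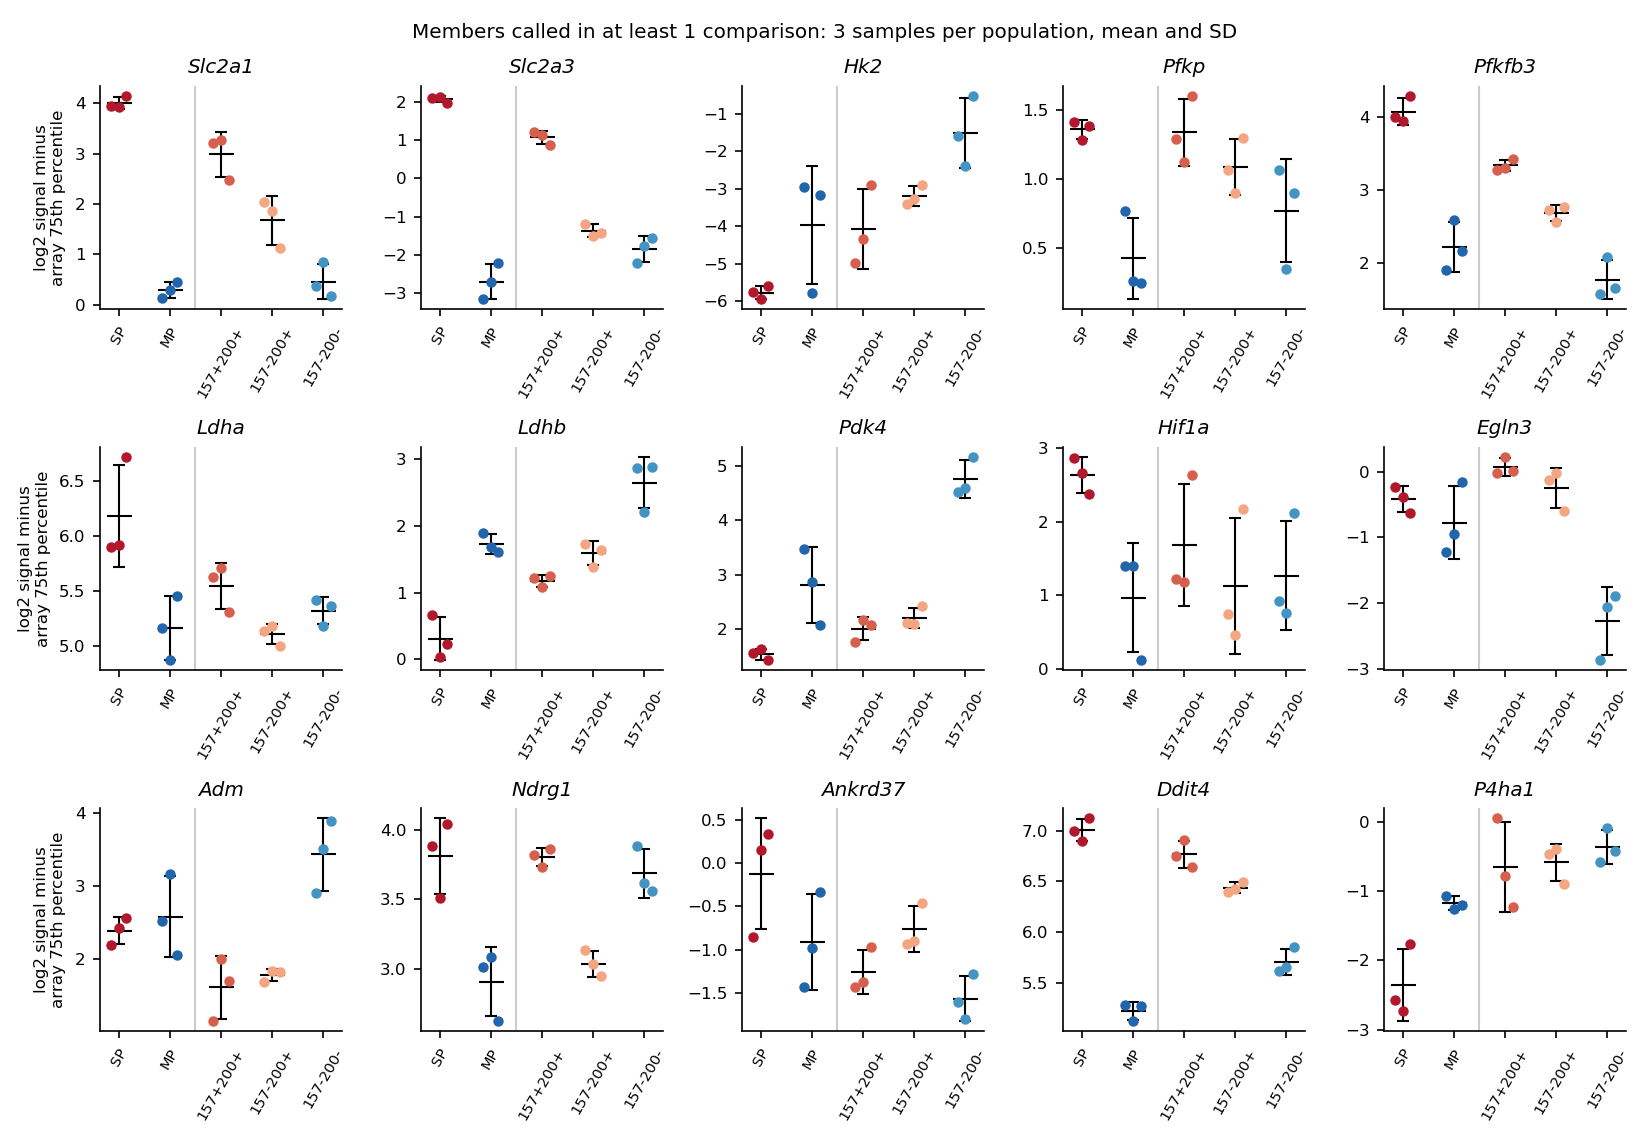
Level (log2 signal minus the array's 75th percentile) of the 15 members called in at least 1 comparison, in each of 3 samples (points) of 5 populations, with the mean and SD (bars). A grey line parts EC-SP and EC-MP from the subsets, whose names are shortened to digits and signs. Slc2a1, Slc2a3, Pfkfb3 and Ddit4 are high in EC-SP and in CD157+CD200+, and Hk2, Pdk4 and Adm are highest in CD157-CD200- among the subsets.

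Across the subsets, Slc2a3 was called between the CD200+ subsets, at 2.44, and not between the CD157- subsets. Egln3, Pdk4 and Adm were called between the CD157- subsets, at 2.03, -2.54 and -1.65, and differed by 0.31, -0.20 and -0.17 between the CD200+ subsets, none of these called. Slc2a1 had steps of 1.22 and 1.31, while Ndrg1 was lowest in the middle subset. Whether the steps within 1 gene differ from each other was not tested.

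**Figure D3:**
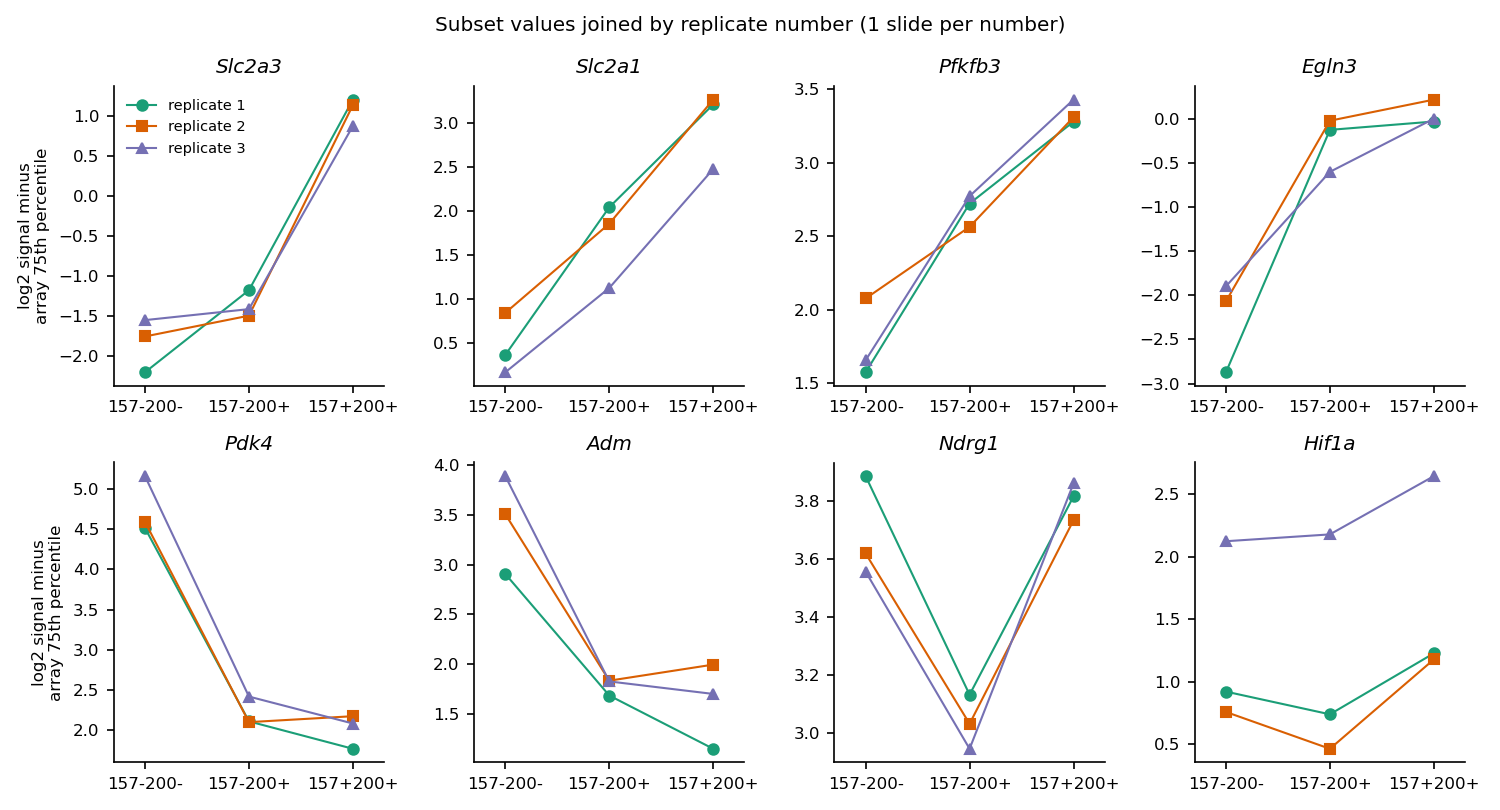
Level (log2 signal minus the array's 75th percentile) of 8 members in the 3 subsets, with 1 line for each replicate number, which is also 1 slide. Slc2a3 rises between CD157-CD200+ and CD157+CD200+ on every slide, Egln3, Pdk4 and Adm change between CD157-CD200- and CD157-CD200+, and the line of replicate 3 lies above the others throughout for Hif1a.

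The 2 sorts had 6 called members in common: Slc2a3, Slc2a1, Pfkfb3 and Ddit4, higher in EC-SP and in CD157+CD200+, and Ldhb and Pdk4, lower in both. These are 54.5% of the 11 calls in EC-SP against EC-MP and 66.7% of the 9 calls between the outer subsets. Over the 22610 features tested in both, 1517 were called in both in 1 direction, 40.5% of the 3749 calls in the first and 45.1% of the 3365 in the second. The 2 comparisons use different samples. A further test asked, on all 15 arrays, whether the difference between EC-SP and EC-MP had another size than that between the outer subsets. It called 4 of 34 members, beside 5.82% of all features, 3 with a positive value (2.5%) and 1 with a negative one (3.32%). With slide as a block it called 10, beside 15.4%: the same 4 and Slc2a1, Hif1a, Pgk1, Ddit4, Car9 and Ldha, each with a positive value.

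Slc2a3 differed by 1.84 ± 0.34 more (SE) between EC-SP and EC-MP than between the outer subsets, adjusted p 0.0037. Egln3 differed by 1.99 less, a value of -1.99 ± 0.42 (SE), adjusted p 0.010, or -1.13 under normexp. Adm and Pdk4 gave 1.63 ± 0.43 and 1.48 ± 0.41 (SE), adjusted p 0.035 and 0.047, since both were lower in CD157+CD200+ by more than in EC-SP. The last 2 calls were unsteady. Both were lost after quantile normalization, in the series table, with the percentile over detected probes and with no filter on dim probes. The adjusted p there was 0.054 to 0.091 for Adm and 0.055 to 0.12 for Pdk4. For Adm the adjusted p rose to 0.051 to 0.098 in 9 of the 15 fits that left out 1 library, and for Pdk4 to 0.058 to 0.12 in 14 of 15, all but the one without EC-MP replicate 1. For Pfkfb3 the test gave 0.29 ± 0.29 (SE), and for Ldhb 0.05 ± 0.31 (SE), neither called.

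**Figure D4:**
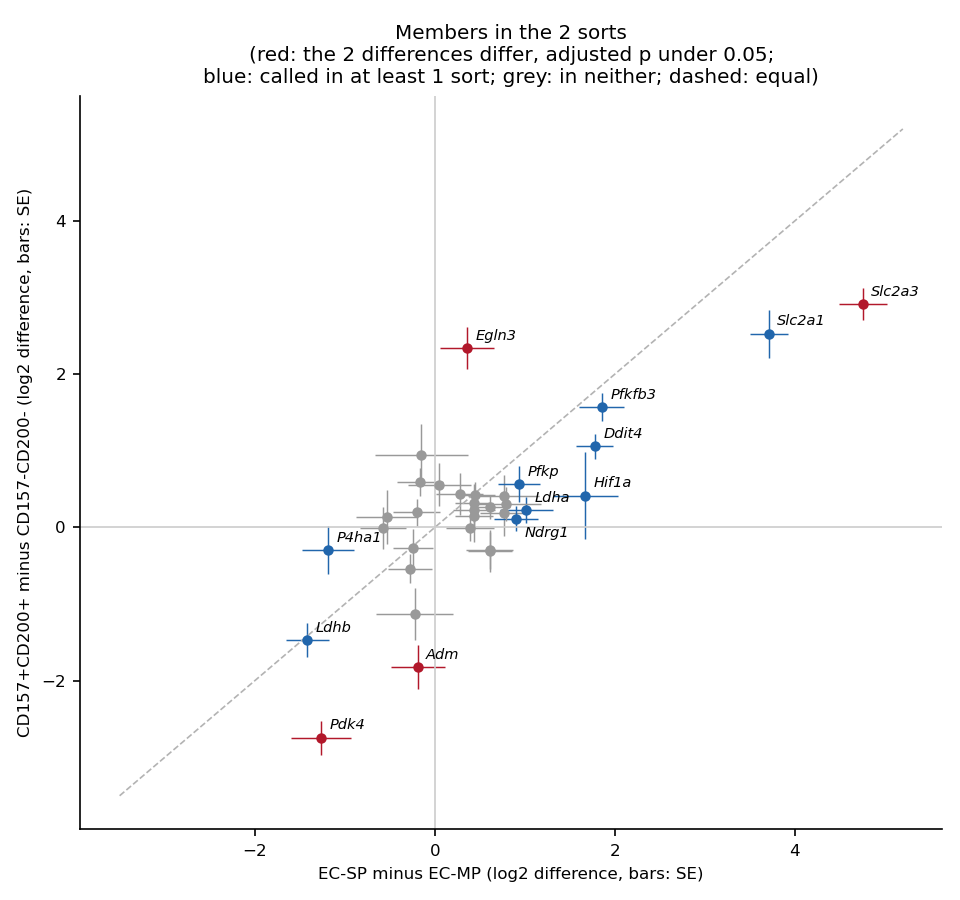
Log2 difference of 34 members between EC-SP and EC-MP (horizontal) and between CD157+CD200+ and CD157-CD200- (vertical), with standard errors as bars and a dashed line of equal difference. Red marks the 4 genes whose differences differ, blue the others called in at least 1 sort, grey those called in neither. Slc2a3 lies far right of the line at 4.76 and 2.91, and Egln3 far above it at 0.36 and 2.34.

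Other genes of these pathways were counted from lists. All are outside the 37, except Hif1a, Hif3a, Egln1 and Egln3 on the HIF system list. The counts are to be read against the shares of all features given above. These were 9.11% higher and 7.44% lower in EC-SP, and 8.09% and 7.11% between the outer subsets. Among 15 tested other isoforms of carriers and glycolytic enzymes, 3 were higher and 1 lower in EC-SP, among them Slc2a2 (GLUT2), by 1.93 ± 0.22 (SE, adjusted p 0.00061), and Bpgm, which makes 2,3-bisphosphoglycerate, by 1.32. In CD157+CD200+ against CD157-CD200-, 1 of 16 was higher, the carrier Slc2a10, at least 9.10-fold, and 2 were lower, among them the carrier Slc2a8 at -1.40. Of 30 tested other HIF targets, 8 were higher and none lower in EC-SP. Among them were the chemokine receptor Cxcr4, at 4.82 ± 0.46 (SE, adjusted p 0.00025), and Lox, a collagen cross-linker, at 2.46.

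Between the outer subsets, 10 of 31 other HIF targets were higher and 2 lower. Edn1, the vasoconstrictor endothelin, led with 6.23 ± 0.31 (SE, adjusted p 1.2e-06), followed by Lox, which was at least 25.6-fold higher, and Cxcr4 at 2.54. The median of the list, 0.32, stood beside 0.01 over all features. Edn1 is also on the large-vessel list, and in EC-SP it gave -0.49, not called. Between CD157+CD200+ and CD157-CD200+ none of the 31 was called by limma, and 2 had an unadjusted p under 0.05. Of 14 tested genes of the HIF system, 3 were higher in EC-SP, among them the member Hif1a given above. Siah2, a ubiquitin ligase that acts on the Egln enzymes, was higher by 0.93. Eloc, a partner of the von Hippel-Lindau ligase, was higher by 0.80. Between the outer subsets the 1 gene called on that list was the member Egln3.

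Among 20 genes around pyruvate and lactate, 1 was higher and 1 lower in EC-SP, and 2 higher and 1 lower in CD157+CD200+ against CD157-CD200-. Pdp1, the phosphatase that undoes the work of the Pdk enzymes, was higher in EC-SP by 1.55 ± 0.29 (SE, adjusted p 0.0076) and in CD157+CD200+ by 1.14 ± 0.25 (SE, adjusted p 0.011), opposite to Pdk4. The lactate exporter Slc16a3 (MCT4) was higher in CD157+CD200+ by 1.75 ± 0.23 (SE, adjusted p 0.00062), and by 0.43 in EC-SP, not called. Got1, of the malate-aspartate shuttle, was lower in CD157+CD200+, by 1.97 on the log2 scale. None of the 17 genes of the TCA cycle was called by limma in any of the 4 comparisons, and 1 had an unadjusted p under 0.05, between the outer subsets. The pentose phosphate pathway gave 1 of 8 called in EC-SP, H6pd at -1.21, and G6pdx at 0.88 and H6pd at -0.83 between the outer subsets.

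Of 15 tested regulators of endothelial glycolysis, 3 were called in EC-SP against EC-MP, and 6 of 16 in the outer subsets, where 3 were higher and 3 lower. Myc, a driver of glucose uptake, was higher in EC-SP by 2.97 ± 0.28 (SE, adjusted p 0.00025) and in CD157+CD200+ over CD157-CD200+ by 2.10 ± 0.28 (SE, adjusted p 0.0083), but it was lower in CD157-CD200+ than in CD157-CD200-, at -1.09. Txnip, which takes GLUT1 off the cell surface and is itself induced by glucose, was lower in EC-SP, at -1.39 ± 0.33 (SE, adjusted p 0.022), and in CD157+CD200+ against CD157-CD200-, at -1.07 ± 0.16 (SE, adjusted p 0.0011). Foxo1, known to restrain Myc and endothelial metabolism, was higher in EC-SP by 0.79. Of gluconeogenic genes, Fbp1 was lower in CD157+CD200+ than in CD157-CD200-, at -2.38 ± 0.33 (SE, adjusted p 0.00091), beside the hepatocyte sums given above.

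CD157-CD200+ against CD157-CD200- shares the CD157-CD200- samples with the comparison of the outer subsets, so its values are given beside it and not as further support. In this comparison 6.31% of all features were higher and 5.54% lower. Of 31 other HIF targets 8 were higher and 2 lower, led by Edn1 at 6.68 ± 0.31 (SE, limma adjusted p 1.0e-06). Lox was at least 17.1-fold higher, and Plod1, a collagen lysyl hydroxylase, gave -1.60. Among the regulators 1 was higher, Tigar, a phosphatase that lowers fructose-2,6-bisphosphate, at 0.78. There 4 were lower, among them Kdr, the VEGF receptor, at -1.75 and Mlxip, a glucose-sensing transcription factor, at -1.17. Slc2a10 was at least 6.43-fold higher. Slc16a3 and Pdp1 were higher by 1.73 and 0.97 and Got1 gave -1.85.

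Cholangiocyte markers moved with EC-SP: 5 of 8, Krt19 and Epcam among them, were higher there, and their summed level was 11.7 to 14.8 in EC-SP and 4.71 to 5.12 in EC-MP. In the outer subsets none of 7 was called by limma, with 2 at an unadjusted p under 0.05, but all 7 differences were positive, with a median of 0.69 and sums of 5.97 to 8.24 and 4.40 to 5.92. Of 10 large-vessel markers, 6 were higher in EC-SP and 7 in CD157+CD200+ against CD157-CD200-, and Gja4 was lower in both. Bst1 and Cd200 were among the higher genes in both comparisons, and the subsets were sorted by the proteins of these genes. Stellate and mesenchymal markers summed to 8.06 to 13.5 in EC-SP and 2.50 to 3.69 in EC-MP, and to 17.7 to 25.3 in CD157+CD200+ and 5.13 to 5.55 in CD157-CD200-, and Pdgfrb was at background in EC-MP. Of 8 tested, Rgs5 was higher and Lrat and Reln were lower in EC-SP, and Rgs5 and Pdgfrb were higher and Lrat and Dcn lower in CD157+CD200+ against CD157-CD200-. The part of these cells, and of vessel type, in the members' values was not tested.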

How the data were processed

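RNA was amplified with Ovation Pico WTA System V2 and labelled with Cy3, per the labels' protocols, so levels come from amplified cDNA. The deposited scanner files hold background-subtracted spot intensity on a linear scale, made with Agilent Feature Extraction, version 10.10.1.1 (EC-SP, EC-MP) or 11.5.1.1 (subsets), per the file headers. A series table from the authors repeats this intensity with 1 scale factor per array and served as an alternative.

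Values were log2 of the processed signal minus the array's log2 75th percentile, without controls and spots marked as outliers (110 to 213 per array), with spots of a probe averaged. Of 55681 probes, 28059 carried a gene symbol. A probe entered a test if all 3 arrays of some population in the fit showed it well above background, and the probe with the highest mean stood for its gene. This left 23971 features (EC-SP, EC-MP) and 23701 (subsets). The tests are limma 3.58.1 in R 4.3.3 (lmFit, eBayes, two-sided, Benjamini-Hochberg over all features), and the code was tested on simulated data. Standard errors are those of the fit. Python 3.11.15 with pandas 2.3.3 read the files. A fold is a lower bound where 1 population lay at background: per array, its probe's signal or the dimmest detected signal, whichever is higher, stood for it.

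Arrays of 1 replicate number shared a slide and a scan, per the file headers. After group means were removed, they correlated across features at r of 0.27 to 0.33 (3 pairs of EC-SP and EC-MP). For the 9 subset pairs r was 0.27 to 0.63. So replicate numbers pair the samples, and blocked values are given where they change a call.

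The alternatives were normexp background correction (offset 50, on the median signal, since the files hold no mean signal), quantile normalization, the series table, a percentile over detected probes, other filters and probe rules, a threshold of 1 log2 unit, slide as a block, and leaving out each library. The genes given in full are those called in any of the 4 comparisons, the 15 with the lowest adjusted p, and Slc2a1, Hk2, Pfkfb3, Ldha, Pdk1 and Hif1a, and from each pathway list up to 3 called genes with the lowest adjusted p. Hk1 and the other uncalled genes with values were added after their values were seen. The members and lists were chosen with earlier results of these data known. Some genes of the pathway and marker lists are counted but not reported by name here.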

Additional observations from a re-analysis of the deposited data

Results flagged for a closer look

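For 4 members the difference between EC-SP and EC-MP was of another size than the difference between CD157+CD200+ and CD157-CD200-, by the limma test of the difference itself over 15 arrays with n = 3 per population. Slc2a3 gave 1.84 (adjusted p 0.0037), from differences of 4.76 and 2.91, positive on all 3 slides in both sorts. Egln3 gave -1.99 (adjusted p 0.010), from 0.36 and 2.34. Adm gave 1.63 (adjusted p 0.035), from -0.19 and -1.82. Pdk4 gave 1.48 (adjusted p 0.047), from -1.26 and -2.74. The calls of Slc2a3 and Egln3 held in all 23 refits. That of Adm was lost in 13 of them and that of Pdk4 in 18. The 2 sorts were read on different scanners, and the part of scanner and software in these values cannot be told apart from the sort.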

How the results depend on the processing

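Of 34 calls of a member in a comparison, 22 kept an adjusted p under 0.05 in every refit that tested the gene, leave-one-out fits included, and none reversed. The threshold on size is not a refit and is counted apart, and Hk2 had no test under the stricter filter. Members called in EC-SP against EC-MP fell from 11 to 5 with no filter on dim probes. The share of all features called fell from 16.6% to 6.19%. CD157+CD200+ against CD157-CD200+ gave 2 under normexp, beside 1.57% of all features. With the replicate block, counts were 20 for CD157+CD200+ against CD157-CD200-, 3 against CD157-CD200+, 15 for CD157-CD200+ against CD157-CD200-, and 10 for the difference between the sorts. That last count was 2 under quantile normalization, the series table, the percentile over detected probes, and no filter. At a threshold of 1 log2 unit CD157-CD200+ against CD157-CD200- gave 5. Leaving out each library gave 5 to 8 in EC-SP against EC-MP, 9 to 10, 1 to 1 and 5 to 10 in the subset comparisons in the order outer, CD157 and CD200, and 2 to 3 for the difference between the sorts. In the series table the median of all features in EC-SP minus EC-MP moved to -0.17. With 3 arrays a population and 1 probe for most genes, small differences and dim genes such as Hk2 are poorly resolved.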
